A study of Homo sapiens with 6 samples.

Results

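The genes described here are 47 members of the RAS signaling module, out of 61279 genes in the RNA sequencing (RNA-seq) tables: 5 RAS proteins, 5 RAF kinases and scaffolds, 8 RAS exchange factors, 2 RAL exchange factors that act as RAS effectors, 9 RAS GTPase-activating proteins (GAP), 7 Sprouty and SPRED inhibitors, 10 RAS association domain family (RASSF) proteins, and LZTR1, the adaptor of a cullin ubiquitin ligase. The rule chose them by name and function and used no expression values, but it was set with earlier results of these data known. The cells were labelled as T47D, a hormone receptor-positive human breast cancer cell line kept in RPMI medium with serum. The labels give the genotype as WT, and the study describes the line as PIK3CA-mutant. In the treated condition, 3 libraries came from cells exposed over 24 hours to MI-503 at 4 μmol/L. MI-503 blocks the binding of Menin to the histone methyltransferase MLL1. In the control condition, 3 libraries came from cells given the solvent DMSO for 24 hours. The labels number the libraries as biological replicates 1 to 3 of each condition and name 1 cell line for all 6 libraries.

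RAS proteins are small GTPases at the inner face of the plasma membrane that signal while bound to GTP. Exchange factors load them with GTP, GAPs speed the hydrolysis that turns them off, and Sprouty and SPRED proteins restrain the pathway below receptor tyrosine kinases. GTP-bound RAS engages effectors, among them the RAF kinases that start the MAPK cascade, the exchange factors of the RAL GTPases, and RASSF proteins, which have no enzyme activity and in part bind the Hippo kinases STK3 and STK4. In luminal breast cancer cells, this pathway runs beside PI3K signaling downstream of the same receptors.

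The deposited tables held 17404736 to 22168525 estimated reads per library, which were summed per gene and scaled to CPM (counts scaled to a common library size). The identity of the libraries bears on every value that follows. All 13 luminal breast markers were higher in libraries labelled MI-503, with a summed level of 11459 to 14386 CPM in the libraries labelled MI-503 and 332 to 536 CPM in those labelled DMSO. The estrogen receptor gene ESR1 had 209, 240 and 295 CPM in libraries labelled MI-503, against 0, 0.193 and 0 CPM in libraries labelled DMSO. All 12 prostate markers were lower in libraries labelled MI-503, with a summed level of 124 to 135 CPM in libraries labelled MI-503 and 6730 to 8193 CPM in those labelled DMSO. KLK3, the gene of prostate-specific antigen, had 0 CPM in each library labelled MI-503 and at 3758, 3683 and 3669 CPM in those labelled DMSO. The libraries labelled DMSO thus nearly lacked ESR1, PGR and GATA3, which had at most 0.58 CPM there. Of the 13 luminal markers, 7 exceeded 1 CPM in each library labelled DMSO. Of the 12 prostate markers, 4 did so in each library labelled MI-503. An effect of MI-503 and a different origin of the libraries cannot be told apart in any comparison here. Blood cell markers summed to 4.19 to 4.81 CPM in libraries labelled MI-503 and 1.31 to 3.73 CPM in those labelled DMSO, with 6 of 13 at 0 reads under each label. Nor can fewer cells of a type and less RNA per cell be told apart in bulk RNA.

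Of the 47 members, 37 had enough reads to be tested. Between the libraries labelled MI-503 and those labelled DMSO, 14 members were called higher and 12 lower (adjusted p under 0.05), and 11 were not called. Across all 16442 genes tested, 31.7% were called higher and 31.2% lower, so 26 calls among 37 members is a share near the background of 62.9%. The median log2 fold change was -0.18 over the members tested and 0 over all genes. Beyond a log2 fold change of 2, the threshold of the study, lay 4 higher members (RASAL1, RASA4, SPRY2 and KSR1) and 3 lower members (RASSF2, RASSF3 and RGL1), where the background was 12.6% and 11.7% of all genes. The libraries of the 2 labels did not overlap in CPM for 28 of the 37 members tested, against 68.7% of all genes tested. By role, 6 of 8 GAPs tested were higher, and 4 of 7 RASSF genes tested were lower with none called higher. The largest single item was RASSF3, which held 2.4% of all members' reads in libraries labelled MI-503 and 29.8% in libraries labelled DMSO.

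**Figure D1:**
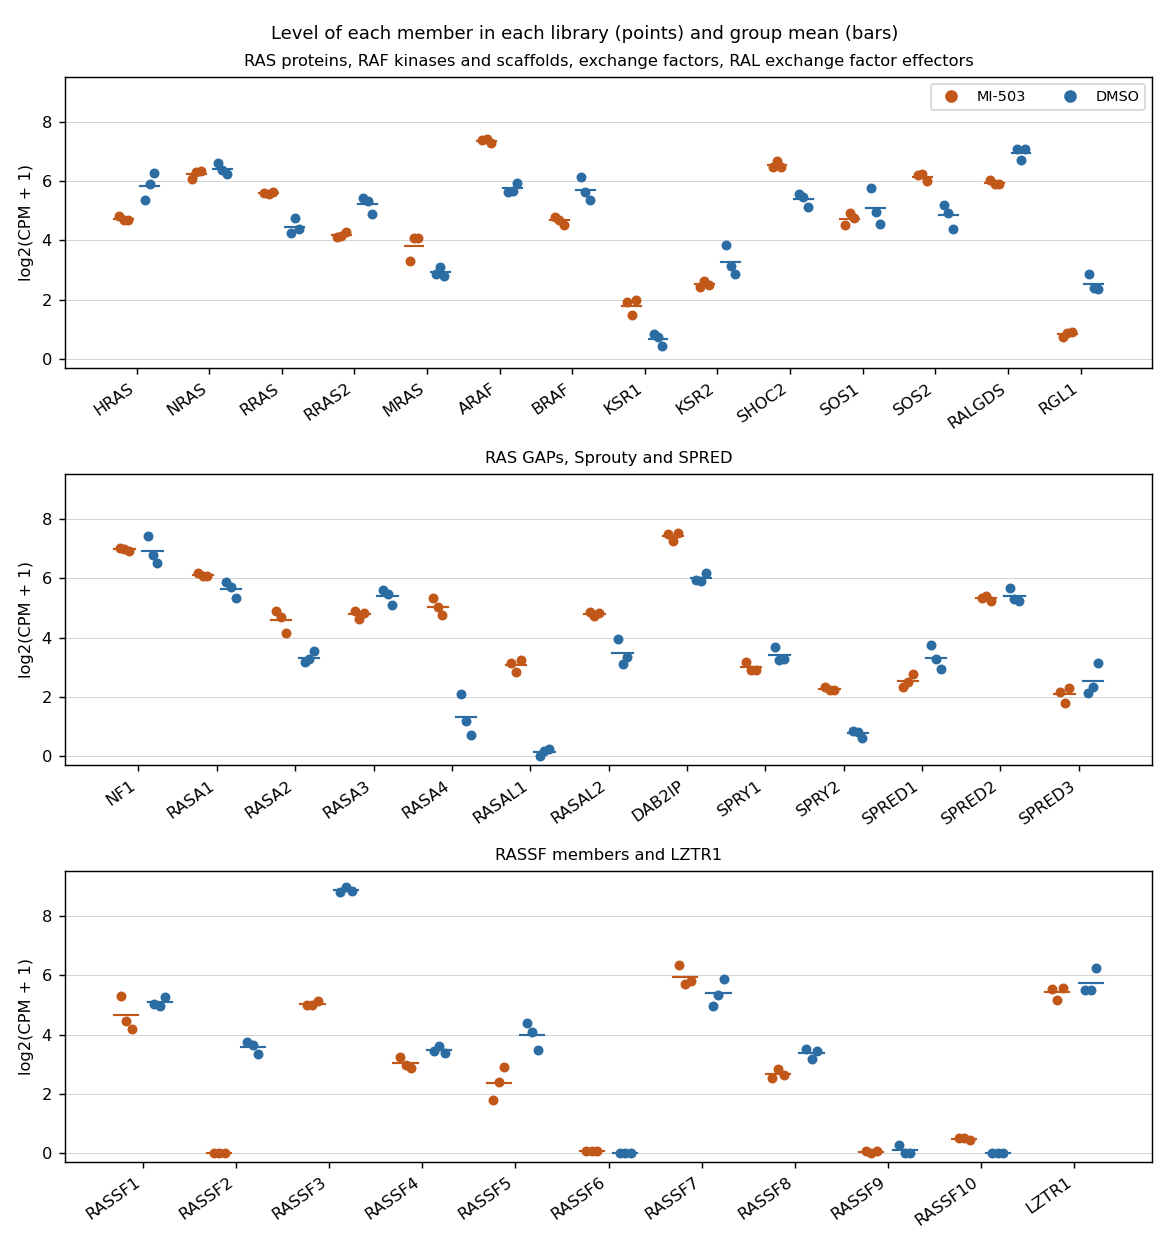
Level of most members in each library, as log2(CPM + 1) on the vertical axis, with points for libraries labelled MI-503 (orange, left of each pair) and DMSO (blue, right) and a bar at the mean of each 3. RASGRF1, RASGRF2, RASGRP1, RASGRP2, RASGRP3, RASGRP4, RASAL3, SPRY3 and SPRY4 are not drawn. RASSF3 and RASSF2 are well below the DMSO points in every library labelled MI-503, and RASA4 and RASAL1 are well above them.

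Among the 5 RAS proteins, 2 were higher and 2 lower in libraries labelled MI-503, against 31.7% and 31.2% of all genes tested. HRAS, a classical RAS protein, had 27.6, 24.6 and 24.7 CPM in libraries labelled MI-503, against 40.0, 58.4 and 76.7 CPM in libraries labelled DMSO. The labels did not overlap, and the log2 fold change was -1.19 ± 0.23 (SE; adjusted p = 0.00129). NRAS, the other classical member here, had 66.8, 77.4 and 80.1 CPM under MI-503 and 96.6, 82.6 and 74.9 CPM under DMSO. Its labels overlapped, and its log2 fold change of -0.18 ± 0.16 (SE) did not pass the test (adjusted p = 0.343). The R-RAS branch was split. RRAS, a RAS relative tied to integrin adhesion, had 47.9, 46.0 and 48.7 CPM in libraries labelled MI-503 and 17.9, 25.9 and 19.8 CPM in those labelled DMSO, a log2 fold change of 1.16 ± 0.18 (SE; adjusted p = 0.000341). RRAS2, its close paralog, went the other way, with 16.3, 16.6 and 18.4 CPM under MI-503 and 41.7, 39.5 and 28.8 CPM under DMSO (log2 fold change -1.10 ± 0.19, SE; adjusted p = 0.000688). MRAS, which forms a phosphatase complex with SHOC2 that activates RAF, was at 8.96, 15.8 and 16.1 CPM under MI-503 and 6.24, 7.64 and 6.06 CPM under DMSO. The lowest MI-503 library of MRAS was replicate 1, still above every DMSO library, and the log2 fold change was 1.03 ± 0.28 (SE; adjusted p = 0.00847). Per transcript length, as TPM (transcript counts per length, scaled to the same total in every library), RRAS made up 48.7%, 47.5% and 48.1% of the summed level of the 5 RAS genes in libraries labelled MI-503 and 18.9%, 22.9% and 16.7% in those labelled DMSO. HRAS made up 29.4%, 24.3% and 24.4% of that sum under MI-503, against 40.4% to 59.4% under DMSO. The sum itself was 166 ± 3.06 TPM under MI-503 and 193 ± 12.2 TPM under DMSO (SD, n = 3 each; exact permutation p = 0.1, two-sided, the smallest that 3 against 3 libraries can give).

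All 5 RAF kinases and scaffolds were called, 3 higher and 2 lower, where 62.9% of all genes tested were called. ARAF, the RAF isoform encoded on the X chromosome, had 166, 169 and 156 CPM in libraries labelled MI-503, against 49.1, 50.3 and 60.1 CPM in those labelled DMSO. No library of either label came near the other label, and the log2 fold change was 1.62 ± 0.15 (SE; adjusted p = 1.03e-05). BRAF, the isoform with the highest basal kinase activity, had 27.0, 25.0 and 22.0 CPM under MI-503 and 68.6, 48.9 and 40.2 CPM under DMSO. It was lower in all libraries labelled MI-503 (log2 fold change -1.09 ± 0.22, SE; adjusted p = 0.00145). SHOC2, the leucine-rich repeat scaffold of the MRAS complex, had 87.6, 102 and 87.5 CPM under MI-503 and 46.9, 43.2 and 34.3 CPM under DMSO (log2 fold change 1.16 ± 0.17, SE; adjusted p = 0.00022). SHOC2 thus moved the same way as its partner MRAS. The 2 KSR scaffolds, which hold RAF, MEK and ERK together, were called in opposite directions. KSR1 had 2.82, 1.83 and 2.97 CPM under MI-503 and 0.813, 0.677 and 0.364 CPM under DMSO (log2 fold change 2.03 ± 0.45, SE; adjusted p = 0.00287). KSR1 was a gene of few reads, 143 over the MI-503 libraries and 40 over the DMSO libraries, and its log2 fold change became 3.52 when transcript length was allowed for. KSR2 had 4.38, 5.28 and 4.69 CPM under MI-503 and 13.3, 7.74 and 6.24 CPM under DMSO (log2 fold change -0.93 ± 0.32, SE; adjusted p = 0.029). That call was lost without MI-503 replicate 1, 2 or 3 (adjusted p = 0.0818, 0.0601 and 0.0747) and without DMSO replicate 1 (log2 fold change -0.55, adjusted p = 0.139). The summed level of the 5 genes was 146 ± 7.48 TPM in libraries labelled MI-503 and 66.6 ± 5.72 TPM in those labelled DMSO (SD, n = 3 each; exact permutation p = 0.1, two-sided, the smallest possible).

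Of the 8 exchange factors, 3 could be tested and 2 of them, SOS2 and RASGRP2, were higher, against 31.7% of all genes tested. SOS1 and SOS2 are the exchange factors that the adaptor GRB2 brings to activated receptors. SOS2 had 73.4, 74.7 and 62.6 CPM in libraries labelled MI-503, against 35.9, 29.7 and 19.9 CPM in libraries labelled DMSO, with no overlap (log2 fold change 1.30 ± 0.22, SE; adjusted p = 0.000541). SOS1 had 22.2, 29.2 and 26.2 CPM under MI-503 and 53.3, 30.5 and 22.4 CPM under DMSO. The SOS1 values overlapped because DMSO replicate 3 lay among the MI-503 libraries, and the log2 fold change of -0.45 ± 0.29 (SE) did not pass (adjusted p = 0.201); without DMSO replicate 3 it was -0.70 (adjusted p = 0.0336) and without DMSO replicate 1 it was -0.03 (adjusted p = 0.909). RASGRP2, a calcium-responsive exchange factor best known in platelets, had 53 reads over the libraries labelled MI-503 and 15 over those labelled DMSO (log2 fold change 1.99 ± 0.47, SE; adjusted p = 0.0039). The call on RASGRP2 was lost when transcript length was allowed for (adjusted p = 0.0665), and on protein-coding transcripts alone its log2 fold change was 7.14 (adjusted p = 0.000339). With so few reads of the gene in all, the size of that last value is uncertain. The other 5, RASGRF1, RASGRF2, RASGRP1, RASGRP3 and RASGRP4, which are known mainly from neurons and blood cells, fell below the filter on low counts. Each of these had at most 43 reads over the libraries labelled MI-503 and at most 15 over those labelled DMSO. Per length, SOS2 made up 79.4%, 76.6% and 74.3% of the exchange factor sum under MI-503 and 47.2%, 61.7% and 53.9% under DMSO.

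Both RAL exchange factors were lower, as were 31.2% of all genes tested. RALGDS, which binds GTP-loaded RAS and activates the RAL GTPases, had 64.6, 59.1 and 58.8 CPM in libraries labelled MI-503, against 133, 104 and 135 CPM in those labelled DMSO. Its 2 labels were well apart (log2 fold change -1.03 ± 0.16, SE; adjusted p = 0.000302). RGL1, its relative, had 0.682, 0.836 and 0.890 CPM under MI-503 and 6.33, 4.26 and 4.10 CPM under DMSO. Every library labelled MI-503 was far below every library labelled DMSO, and the log2 fold change of RGL1 was -2.60 ± 0.37 (SE; adjusted p = 0.000194).

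The 2 highest log2 fold changes among the members were those of the GAPs RASAL1 and RASA4. Of 9 genes, 8 were tested, 6 were higher and 1 was lower, against 31.7% and 31.2% of all genes tested. The summed level of the 9 GAPs was 123 ± 7.91 TPM in libraries labelled MI-503 and 66.0 ± 18.6 TPM in those labelled DMSO (SD, n = 3 each; exact permutation p = 0.1, two-sided, the smallest possible). RASAL1, a GAP that responds to calcium, had 7.89, 6.22 and 8.43 CPM in libraries labelled MI-503, against 0, 0.145 and 0.182 CPM in libraries labelled DMSO. The DMSO values stand for 7 reads in all against 423 over the MI-503 libraries, so the size of the log2 fold change, 6.04 ± 0.60 (SE; adjusted p = 1.77e-05), rests on very few reads. On protein-coding transcripts alone it was 9.83 (adjusted p = 1.44e-05). RASA4, another calcium-responsive GAP, had 39.4, 31.3 and 26.2 CPM under MI-503 and 3.25, 1.31 and 0.637 CPM under DMSO (log2 fold change 4.21 ± 0.48, SE; adjusted p = 4.16e-05). Its DMSO replicate 1 was the highest of that label, and without it the log2 fold change was 5.05. RASA4 has near-identical copies, RASA4B and RASA4CP, between which the reads can be split in more than 1 way. RASA4B had 54.5, 29.9 and 29.7 CPM under MI-503 and 0.858, 1.60 and 1.91 CPM under DMSO. Summed over the 3 copies, the log2 fold change was 4.27 (adjusted p = 5.29e-07).

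DAB2IP, a GAP and scaffold that also acts in TNF and PI3K signaling, had 180, 150 and 183 CPM in libraries labelled MI-503, against 60.6, 58.8 and 70.8 CPM in libraries labelled DMSO (log2 fold change 1.43 ± 0.16, SE; adjusted p = 3.23e-05). RASA2 had 28.9, 25.0 and 16.7 CPM under MI-503 and 7.997, 8.66 and 10.6 CPM under DMSO (log2 fold change 1.37 ± 0.25, SE; adjusted p = 0.000815). The lowest MI-503 library of RASA2, replicate 3, was still above the highest DMSO library. RASAL2, a GAP that has been studied as a suppressor of luminal breast tumors, had 28.1, 25.5 and 27.1 CPM under MI-503 and 14.4, 7.64 and 9.11 CPM under DMSO (log2 fold change 1.37 ± 0.25, SE; adjusted p = 0.000858). NF1, which encodes neurofibromin, had 127, 126 and 119 CPM under MI-503 and 168, 110 and 89.5 CPM under DMSO. The DMSO libraries of NF1 lay on either side of the MI-503 libraries, with a log2 fold change of 0.02 ± 0.22 (SE; adjusted p = 0.951). The 2 smallest called differences among the GAPs were those of RASA1 (log2 fold change 0.46, adjusted p = 0.0416) and RASA3 (-0.65, adjusted p = 0.0118). RASA1 lost its call without MI-503 replicate 1, 2 or 3 (adjusted p = 0.0554, 0.0651 and 0.0582), without DMSO replicate 2 or 3 (0.0932 and 0.107) and under upper-quartile scaling (0.083) or scaling to library totals (0.0969), and RASA3 lost its own without MI-503 replicate 2 (0.0623). Exons of RASA1 share 14.7% of their bases with CCNH on the opposite strand, and whether the counting used strand is not given in the sources used here.

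**Figure D2:**
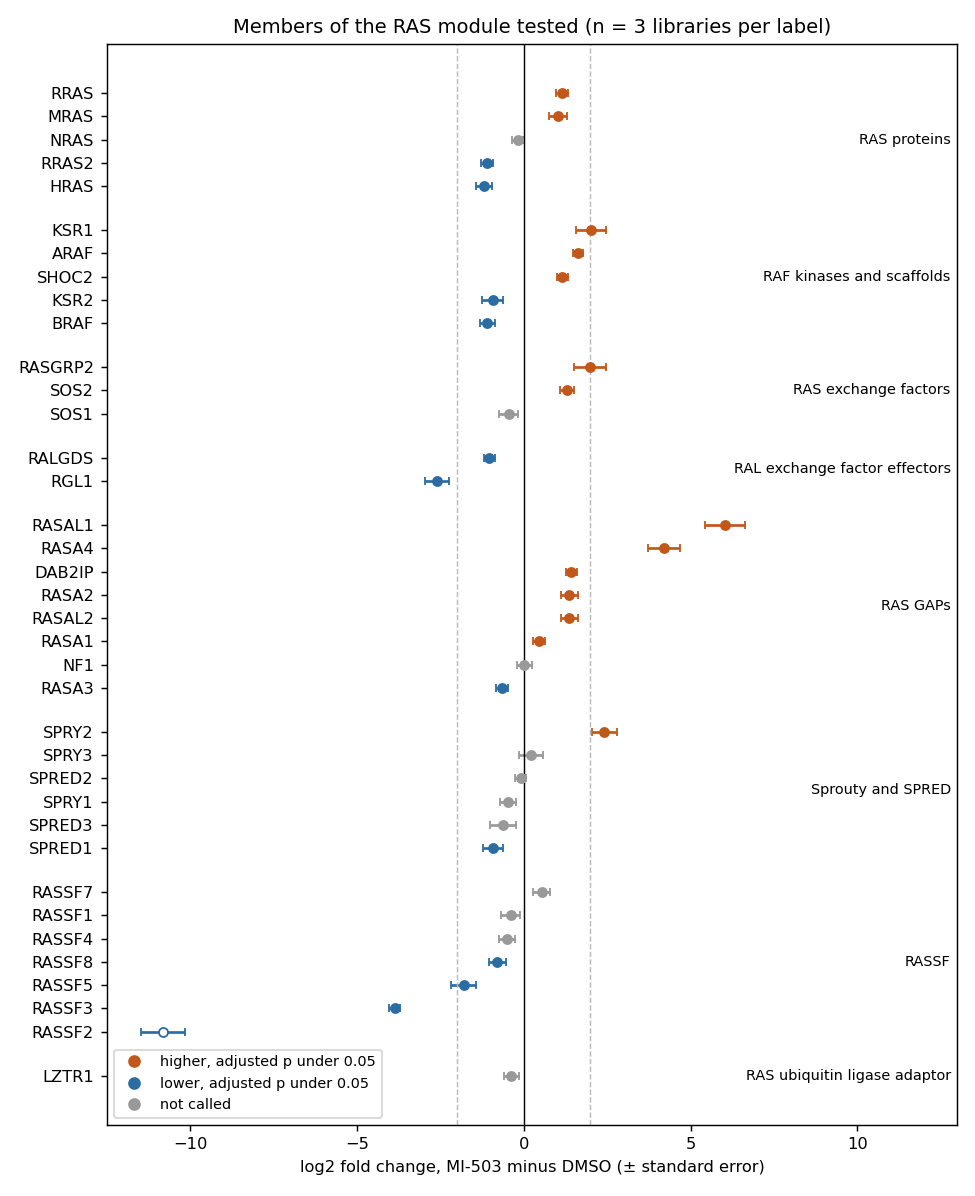
Log2 fold change of the 37 tested members (horizontal axis, libraries labelled MI-503 minus libraries labelled DMSO, bars ± SE), grouped by role and colored by call, with dashed lines at 2 and -2. The open circle is RASSF2, whose fitted value depends on a prior count because it had 0 reads in the libraries labelled MI-503. As called higher, 6 of 8 GAPs lie to the right, and no RASSF gene was called higher, where 31.7% of all genes tested were.

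The transcripts of NF1, SOS1 and BRAF are long, and those of HRAS are short. Within the libraries labelled DMSO, the long ones were highest in replicate 1 and HRAS was highest in replicate 3. Across the 37 tested members, the log2 ratio of DMSO replicate 1 to replicate 3 went with effective length (Spearman rho = 0.54 across genes; 0.25 across all 16442 genes tested), as did that of replicate 1 to replicate 2 (0.57 and 0.44). Between pairs of libraries labelled MI-503, the same correlation over the members lay between -0.31 and 0.09. These genes are points of the same libraries and are not independent replicates. DMSO replicate 1 gave the highest value of its label for 21 of the 37 members and DMSO replicate 3 the lowest for 21. The part of this in the differences between labels was not tested beyond leaving each library out and allowing for length.

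Of the Sprouty and SPRED genes, which are feedback inhibitors of receptor tyrosine kinase signaling, 6 of 7 were tested, 1 was higher and 1 lower. Over all genes tested, 31.7% were higher and 31.2% lower. SPRY2 had 4.09, 3.66 and 3.74 CPM in libraries labelled MI-503, against 0.813, 0.774 and 0.546 CPM in those labelled DMSO. There was no overlap, and the log2 fold change was 2.42 ± 0.37 (SE; adjusted p = 0.000305). SPRED1, which recruits neurofibromin to the membrane, had 4.09, 4.65 and 5.87 CPM under MI-503 and 12.4, 8.66 and 6.69 CPM under DMSO (log2 fold change -0.93 ± 0.30, SE; adjusted p = 0.0224). The SPRED1 call was lost without MI-503 replicate 1 or 2 (adjusted p = 0.0728 and 0.0772), without DMSO replicate 1 (0.0945), and when transcript length was allowed for (0.217). SPRED2, its paralog, had 38.9, 41.3 and 36.7 CPM under MI-503 and 49.3, 38.1 and 36.7 CPM under DMSO, with overlapping labels (log2 fold change -0.09 ± 0.17, SE; adjusted p = 0.675). SPRY1 had 7.94, 6.58 and 6.47 CPM under MI-503 and 11.8, 8.46 and 8.74 CPM under DMSO, which did not overlap but did not pass the test either (log2 fold change -0.47 ± 0.25, SE; adjusted p = 0.125). It passed when transcript length was allowed for (log2 fold change -0.79, adjusted p = 0.041), and over all alternatives lay between -0.79 and -0.29 (adjusted p up to 0.351). SPRED3 had 3.51, 2.46 and 3.92 CPM under MI-503 and 3.34, 4.06 and 7.92 CPM under DMSO (adjusted p = 0.185). SPRY3 had 2.09, 1.72 and 2.02 CPM under MI-503 and 1.81, 1.89 and 1.37 CPM under DMSO (adjusted p = 0.638). Both overlapped between labels. SPRY4, with 58 reads over the MI-503 libraries and 10 over the DMSO libraries, fell below the filter.

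The RASSF genes held the largest falls. Of 10 genes, 7 were tested, 4 were lower, none was higher, and 3 were not called. Over all genes tested, 31.2% were lower and 31.7% higher. RASSF3 (chr12:64507001-64697564, plus strand), one of the family members with a C-terminal domain for binding Hippo kinases, had 30.6, 31.1 and 34.2 CPM in libraries labelled MI-503, against 450, 496 and 460 CPM in those labelled DMSO. The mean was 14.7-fold higher in libraries labelled DMSO, and the log2 fold change of -3.87 ± 0.16 (SE; adjusted p = 5.31e-08) came with no overlap between labels. RASSF2 (chr20:4780023-4823608, minus strand), a RASSF gene that is often silenced in tumors, had 0 reads in each library labelled MI-503, against 12.5, 11.5 and 9.29 CPM in libraries labelled DMSO. With a floor of 3 reads over the MI-503 libraries, RASSF2 was at least 209-fold lower there (adjusted p = 3.84e-06). RASSF5, which binds GTP-loaded RAS and RAP1 and is expressed in lymphocytes, had 2.48, 4.23 and 6.53 CPM under MI-503 and 19.9, 16.1 and 10.2 CPM under DMSO (log2 fold change -1.80 ± 0.38, SE; adjusted p = 0.0021). RASSF8, of the N-terminal RASSF branch, had 4.87, 6.22 and 5.22 CPM under MI-503 and 10.3, 8.08 and 9.88 CPM under DMSO (log2 fold change -0.79 ± 0.25, SE; adjusted p = 0.0176). The labels did not overlap for any of RASSF3, RASSF2, RASSF5 and RASSF8, nor for 68.7% of all genes tested. RASSF8 lost its call without MI-503 replicate 1 or 3 (adjusted p = 0.0569 and 0.0588).

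The remaining RASSF genes overlapped, missed the threshold or were close to absent. RASSF4 had 8.43, 6.90 and 6.35 CPM in libraries labelled MI-503, against 9.98, 11.4 and 9.38 CPM in those labelled DMSO (log2 fold change -0.50 ± 0.23, SE; adjusted p = 0.0853). It passed under upper-quartile scaling (-0.60, adjusted p = 0.0424), scaling to library totals (-0.62, adjusted p = 0.035) and on protein-coding transcripts alone (-1.30, adjusted p = 0.0236), and fell to a log2 fold change of -0.17 when transcript length was allowed for (adjusted p = 0.61). Protein-coding transcripts took 23.0%, 33.2% and 50.9% of RASSF4 reads under MI-503 and 87.8%, 61.6% and 27.6% under DMSO. These shares overlapped and varied widely within each label, so the value on protein-coding transcripts is uncertain. RASSF1, the best known tumor suppressor of the family, had 38.0, 20.8 and 17.3 CPM under MI-503 and 32.0, 30.1 and 37.7 CPM under DMSO. MI-503 replicate 1 of RASSF1 was as high as the DMSO libraries, and the log2 fold change of -0.39 ± 0.28 (SE; adjusted p = 0.247) became -0.75 without it (adjusted p = 0.0125) and -0.16 without MI-503 replicate 3 (adjusted p = 0.643). RASSF7 had 79.8, 50.9 and 54.9 CPM under MI-503 and 30.1, 39.7 and 57.5 CPM under DMSO (log2 fold change 0.54 ± 0.26, SE; adjusted p = 0.0911). Without DMSO replicate 3, the highest of its label, RASSF7 reached 0.83 (adjusted p = 0.0127), and it also passed with no filter on low counts (adjusted p = 0.0208), while over all alternatives it lay between 0.35 and 0.83 (adjusted p up to 0.285). RASSF6 and RASSF9 had at most 5 reads over the libraries of either label. RASSF10 had 23 reads over the MI-503 libraries and 0 over the DMSO libraries, at least 8.79-fold higher against a floor of 3 reads, and was below the filter.

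**Figure D3:**
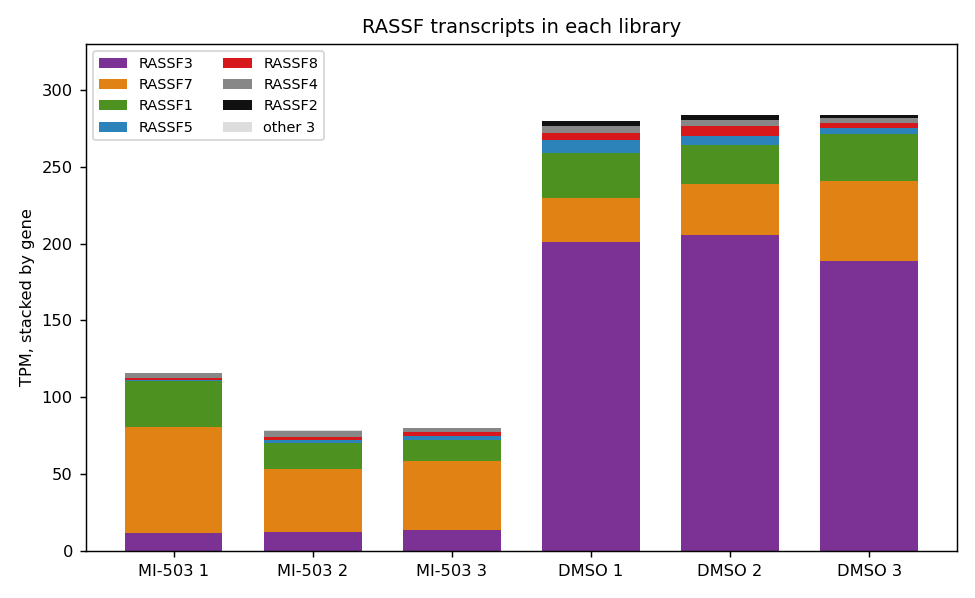
Level of the 10 RASSF genes in each library as stacked TPM (vertical axis), with libraries labelled MI-503 at the left and DMSO at the right. The stacks reach 78.5 to 116 TPM under MI-503 and 280 to 284 TPM under DMSO, and the RASSF3 segment (bottom) is the part that differs most.

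Compared per length, the RASSF family was a different mixture under the 2 labels. Its summed level was 91.5 ± 21.1 TPM in libraries labelled MI-503 and 282 ± 2.27 TPM in those labelled DMSO (SD, n = 3 each; exact permutation p = 0.1, two-sided, the smallest possible). RASSF3 made up 10.2%, 15.6% and 17.0% of the sum under MI-503, against 71.8%, 72.4% and 66.5% under DMSO. RASSF7 took the first place under MI-503 with 59.6%, 52.6% and 56.3%, against 10.3%, 11.9% and 18.4% under DMSO. Without RASSF3 the sums overlapped, at 104, 66.2 and 66.45 TPM under MI-503 and 78.8, 78.2 and 95.02 TPM under DMSO (exact permutation p = 0.6, two-sided). The family totals were thus far apart with RASSF3 and overlapped without it. Over all 47 members, RASSF3 ranked 16 by mean TPM in libraries labelled MI-503 (12.6 ± 0.95 TPM) and 1 in those labelled DMSO (198 ± 8.57 TPM; SD, n = 3 each). ARAF ranked 1 under MI-503 (98.7 ± 4.13 TPM) and 6 under DMSO (34.35 ± 3.10 TPM). Next under MI-503 came RRAS (79.8 ± 2.37 TPM), RASSF7 (51.8 ± 15.03 TPM) and HRAS (43.2 ± 5.23 TPM), of which RASSF7 and HRAS did not differ beyond their spread. Next under DMSO came HRAS (95.03 ± 24.6 TPM), RALGDS (49.7 ± 10.1 TPM), RASSF7 (38.2 ± 12.4 TPM) and RRAS (37.5 ± 5.90 TPM), and the last 3 of these did not differ beyond theirs.

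The stretches before 5 starts are shown, for RASSF3 and SPRY2, and for RASSF1 and RASSF5, whose reads are described by start. RASSF3 and SPRY2 were picked from the 3 lower and 4 higher members called beyond a log2 fold change of 2. The others beyond that fold are not shown. Each stretch is the 250 bases before a RefSeq start, 5′ to 3′ on the gene's strand, in build GRCh38.p14, with each CpG in capitals. GENCODE places the start of RASSF1-201 14 bases further upstream, so the last 14 bases shown for it lie within that transcript. The RASSF3 stretch is chr12:64610245-64610494 (plus strand), with 38 CpG. Of 35116 promoters of the same length, 3.28% held as many, and the median was 11. Of the 39 members with promoters, 32 had a window at or above that median. The RASSF5 stretches are chr1:206507281-206507530 before the upstream start of RASSF5-202, with 23 CpG (25.8% held as many), and chr1:206556914-206557163 before the downstream start of RASSF5-201, with 10 CpG (52.2%), both on the plus strand. The RASSF1 stretch is chr3:50337451-50337700 (minus strand) before RASSF1-201, with 25 CpG (21.6%). The SPRY2 stretch is chr13:80341127-80341376 (minus strand), with 23 CpG (25.8%).
RASSF3-203: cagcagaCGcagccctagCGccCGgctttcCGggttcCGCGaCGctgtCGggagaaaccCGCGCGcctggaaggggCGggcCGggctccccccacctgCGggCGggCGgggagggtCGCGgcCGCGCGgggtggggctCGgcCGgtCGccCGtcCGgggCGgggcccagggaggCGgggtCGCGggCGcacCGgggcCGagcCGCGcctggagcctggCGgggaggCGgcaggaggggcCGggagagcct
RASSF5-202: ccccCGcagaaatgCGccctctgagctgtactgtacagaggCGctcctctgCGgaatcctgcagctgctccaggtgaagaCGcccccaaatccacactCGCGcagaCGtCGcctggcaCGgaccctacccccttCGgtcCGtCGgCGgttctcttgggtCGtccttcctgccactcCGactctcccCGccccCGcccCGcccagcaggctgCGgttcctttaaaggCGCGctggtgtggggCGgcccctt
RASSF5-201: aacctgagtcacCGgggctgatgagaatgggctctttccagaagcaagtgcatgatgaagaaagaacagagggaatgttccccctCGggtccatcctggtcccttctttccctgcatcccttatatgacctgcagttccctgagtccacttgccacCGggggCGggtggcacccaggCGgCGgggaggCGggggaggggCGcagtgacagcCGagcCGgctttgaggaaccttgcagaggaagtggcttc
RASSF1-201: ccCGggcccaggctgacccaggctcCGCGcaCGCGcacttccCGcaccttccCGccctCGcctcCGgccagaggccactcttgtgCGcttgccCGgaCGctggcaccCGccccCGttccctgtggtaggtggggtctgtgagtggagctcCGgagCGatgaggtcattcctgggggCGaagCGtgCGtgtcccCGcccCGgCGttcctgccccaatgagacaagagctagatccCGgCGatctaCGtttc
SPRY2-202: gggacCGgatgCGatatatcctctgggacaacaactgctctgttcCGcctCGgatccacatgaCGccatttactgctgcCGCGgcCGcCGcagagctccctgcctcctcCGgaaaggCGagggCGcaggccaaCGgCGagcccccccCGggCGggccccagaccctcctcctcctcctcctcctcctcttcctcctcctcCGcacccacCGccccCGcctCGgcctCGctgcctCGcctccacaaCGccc

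The GC box GGGCGG, searched on both strands, stood 4 times before RASSF3-203, 4 times before RASSF5-202, 1 time before RASSF5-201, 3 times before RASSF1-201 and 2 times before SPRY2-202, and 42.6% of all promoters held at least 1. The estrogen response element GGTCANNNTGACC, searched on both strands, was in none of the windows of the 39 members in the table and in 0.0399% of all promoters. These are matches of letters and not sites of binding.

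RASSF5 used its 2 starts in different proportions. The upstream start gave the longer form that carries the N-terminal extension, and the downstream start the shorter form known from lymphocytes. Transcripts from the upstream start took 36.8%, 26.4% and 11.6% of the gene's estimated reads in libraries labelled MI-503, against 54.5%, 51.9% and 54.4% in those labelled DMSO. The downstream start took 63.2%, 63.2% and 88.4% under MI-503 and 43.4%, 47.5% and 32.3% under DMSO. The shares did not overlap (exact permutation p = 0.1, two-sided, the smallest possible), but they divide only 242 reads over the MI-503 libraries and 995 over the DMSO libraries. For RASSF1, RASSF1-201, from the downstream start, held 85.8% to 93.1% of the reads under MI-503 and 89.6% to 96.9% under DMSO. The 3 protein-coding transcripts of the upstream start, which give the long form studied as a tumor suppressor, had 0 estimated reads in each of the 6 libraries. These zeros are assignments among transcripts that overlap, so no upper limit is given. Other transcripts of the upstream start, annotated with a retained intron or without a defined coding sequence, had 110.7, 31.1 and 20.1 reads under MI-503 and 12.03, 19.5 and 74.3 reads under DMSO. RASSF1-AS1 overlaps 17.9% of RASSF1 exon bases on the opposite strand. It had 5 reads over the MI-503 libraries and 353 over the DMSO libraries. Whether reads of RASSF1-AS1 were counted for RASSF1 was not tested.

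**Figure D4:**
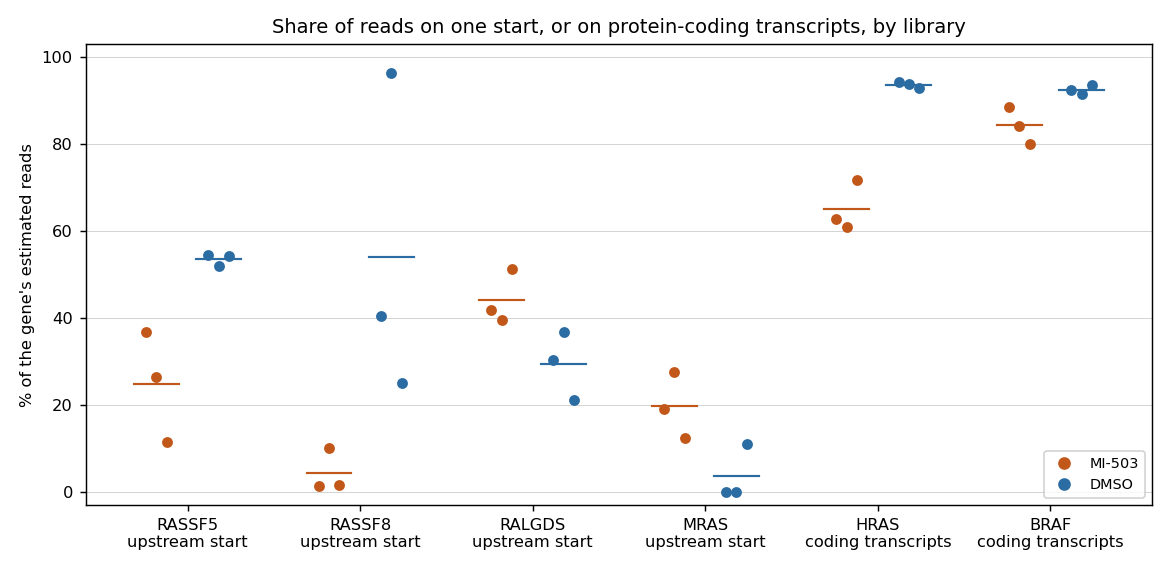
Share of a gene's estimated reads (vertical axis, percent) on transcripts of the upstream start for RASSF5, RASSF8, RALGDS and MRAS, and on protein-coding transcripts for HRAS and BRAF, with points for libraries labelled MI-503 (orange, left) and DMSO (blue, right) and bars at the means. The 6 shares shown were taken from those whose labels do not overlap, so the gaps follow from that choice. The background of such gaps was 48.0% of protein-coding genes with several starts and 19.8% of protein-coding genes by coding share. The DMSO points of RASSF8 spread over 25.1% to 96.4%.

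Of 30 members with at least 30 reads in every library, 9 had several counted starts more than 500 bases apart. A start was counted where its mean share was at least 15% under at least 1 label. In 5 of these 9 members (MRAS, RALGDS, RASSF5, RASSF8 and SPRY1) a start's share did not overlap between labels. The background was 48.0% of 1967 protein-coding genes with several starts, so 5 of 9 is near it. RASSF8 transcripts from the upstream start took 1.4%, 10.2% and 1.7% in libraries labelled MI-503, against 40.5%, 96.4% and 25.1% in those labelled DMSO. The DMSO libraries thus disagreed widely with each other. The upstream start of RALGDS took 41.9%, 39.5% and 51.2% under MI-503 and 30.4%, 36.8% and 21.2% under DMSO. That of MRAS took 19.1%, 27.7% and 12.6% under MI-503 and 0%, 0% and 11.2% under DMSO. The share of reads on protein-coding transcripts did not overlap between labels for 5 of 30 members, lower under MI-503 for HRAS, BRAF and RASA3 and higher for SPRY1 and RASSF3, where the background was 19.8% of 10592 protein-coding genes. The widest gap was that of HRAS. Protein-coding transcripts took 62.8%, 61.0% and 71.8% of HRAS reads under MI-503, against 94.2%, 93.7% and 92.8% under DMSO, and the main coding transcript HRAS-201 took 32.5%, 39.0% and 51.7% under MI-503, against 84.0%, 87.3% and 83.7% under DMSO. Most of the reads on other than protein-coding transcripts under MI-503 lay on HRAS-210 and HRAS-206, which are annotated as targets of nonsense-mediated decay. BRAF had 88.6%, 84.2% and 80.1% of its reads on protein-coding transcripts under MI-503 and 92.4%, 91.5% and 93.5% under DMSO, and its exons overlap NDUFB2 on the opposite strand over 5.29% of their bases. The exact permutation p was 0.1 (two-sided, the smallest possible) for each of these shares, and estimated reads of transcripts that overlap are less certain than gene sums.

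LZTR1, which marks RAS proteins for ubiquitylation, had 45.2, 35.002 and 46.0 CPM in libraries labelled MI-503, against 44.1, 44.7 and 74.7 CPM in libraries labelled DMSO. The labels overlapped, with DMSO replicate 3 the highest library, and the log2 fold change of -0.37 ± 0.23 (SE) did not pass the test (adjusted p = 0.184).

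Genes that work around these members were counted from 5 lists, beside 31.7% higher and 31.2% lower of all genes tested. Of 19 adaptor and cascade genes, 16 were tested, 8 were higher and 4 lower (median log2 fold change 0.46). The adaptor GAB2, which links receptors to PI3K and the phosphatase PTPN11, had 224, 177 and 161 CPM in libraries labelled MI-503, against 4.88, 4.26 and 3.23 CPM in those labelled DMSO (log2 fold change 5.50 ± 0.23, SE; adjusted p = 6.67e-08). FRS2, the docking protein of fibroblast growth factor receptors, had 92.5, 97.6 and 91.7 CPM under MI-503 and 36.1, 28.4 and 26.0 CPM under DMSO (log2 fold change 1.64 ± 0.17, SE; adjusted p = 2.22e-05). Of 23 RAL, RAP and small RAS-like genes, 19 were tested, 9 were higher and 4 lower (median 0.61). RERG, a RAS-like GTPase named for its regulation by estrogen, had 69.5, 91.5 and 85.1 CPM under MI-503 and 0.136, 0 and 0 CPM under DMSO, which stand for 3 reads in all. Its ratio was 1762 (95% counting interval 602.7 to 8549; adjusted p = 8.11e-08). RGL3, a relative of RGL1 and RALGDS, had 87.0, 58.0 and 45.5 CPM under MI-503 and 0, 0.048 and 0 CPM under DMSO, which stand for 1 read, a ratio of 4197 (95% counting interval 752.9 to 165800; adjusted p = 1.2e-07). RGL3 was thus called higher where RGL1 and RALGDS were called lower.

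Of 12 genes for the lipid processing of RAS, all were tested, 3 were higher and 3 lower (median 0.22). ABHD17B, a depalmitoylase, had 7.06, 6.53 and 6.47 CPM in libraries labelled MI-503, against 20.6, 16.8 and 17.5 CPM in those labelled DMSO (log2 fold change -1.45 ± 0.20, SE; adjusted p = 0.000177). ZDHHC9, which palmitoylates HRAS and NRAS, had 56.5, 56.5 and 59.3 CPM under MI-503 and 139, 115 and 105 CPM under DMSO (log2 fold change -1.06 ± 0.16, SE; adjusted p = 0.000235). These 2 enzymes act in opposite directions on palmitate and were both lower. Of 14 genes that commonly follow MAPK output, 11 were tested, 4 were higher and 5 lower (median -0.47), so the list did not move in 1 direction. IER3, an immediate early gene, had 229, 207 and 142 CPM under MI-503 and 0.542, 1.02 and 1.46 CPM under DMSO (log2 fold change 7.57 ± 0.35, SE; adjusted p = 1.16e-07). EPHB2, an ephrin receptor, had 1.12, 0.784 and 1.25 CPM under MI-503 and 17.0, 14.7 and 14.2 CPM under DMSO (log2 fold change -3.86 ± 0.29, SE; adjusted p = 2.54e-06). Of 14 Hippo partners of RASSF proteins, 13 were tested, 8 were higher and 2 lower (median 0.65). WWTR1, the TAZ coactivator that Hippo kinases hold in check, had 68.6, 78.4 and 67.4 CPM under MI-503 and 3.21, 4.01 and 2.41 CPM under DMSO (log2 fold change 4.47 ± 0.23, SE; adjusted p = 1.87e-07). CCN1, a target of the same coactivators, had 44.1, 37.8 and 44.9 CPM under MI-503 and 5.15, 5.32 and 6.65 CPM under DMSO (log2 fold change 2.89 ± 0.20, SE; adjusted p = 1.37e-06). The kinases STK3 and STK4, which bind RASSF proteins, had log2 fold changes of 0.10 (adjusted p = 0.65) and 0.65 (adjusted p = 0.0025). These counts stand against the 31.7% higher and 31.2% lower of all genes, and the markers of cell origin moved with them.

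**Figure D5:**
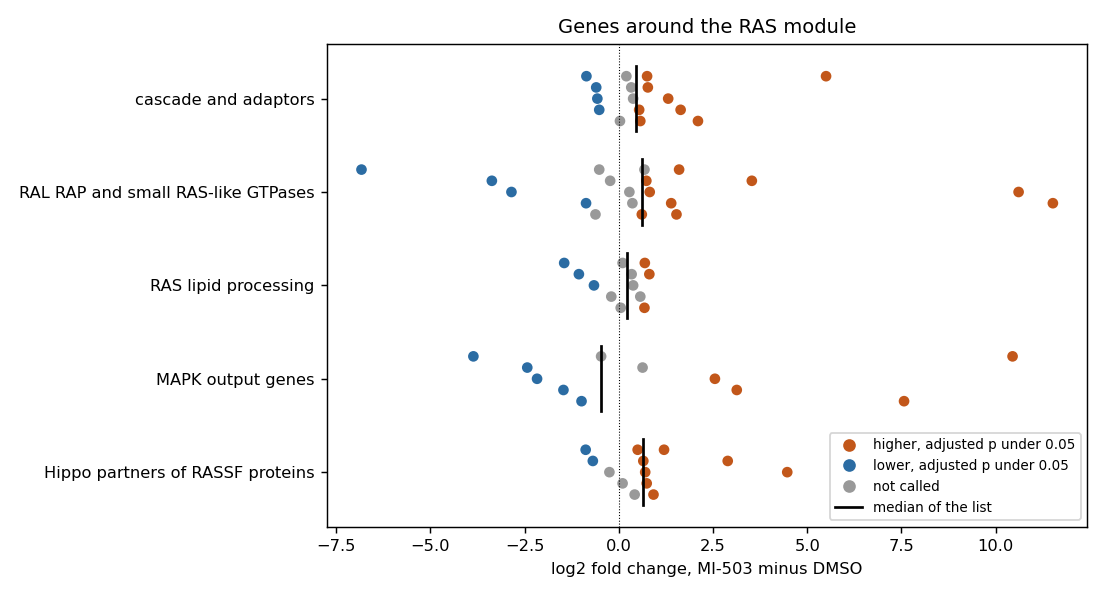
Log2 fold change of each tested gene in the 5 lists around the RAS module (horizontal axis, libraries labelled MI-503 minus libraries labelled DMSO), colored by call, with a bar at the median of each list; vertical position within a list carries no value. The medians lie between -0.47 for MAPK output genes and 0.65 for Hippo partners.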

How the data were processed

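RNA-seq was deposited as 1 table per library, with 232117 transcripts. Per the submitters' processing notes the genome was GRCh38.p13 (hg38). The authors' tables have the format of salmon, whose version, transcript release and strand setting the sources used here do not give. The authors' estimated counts (expected counts per transcript, not normalized) were summed to 61279 genes of GENCODE release 44, to which 98.8% of the transcripts matched, and rounded. The TPM values the authors deposited, which are per transcript length and scaled to 1 total, were summed per gene and used only for levels between genes and sums over genes.

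Genes were filtered (filterByExpr), scaled by TMM and tested in edgeR 4.0.16 (R 4.3.3; limma 3.58.1) by the quasi-likelihood test over all 6 libraries, with no covariate and Benjamini-Hochberg adjustment over 16442 genes. Log2 fold changes are libraries labelled MI-503 minus libraries labelled DMSO. Their SE was derived as the size of the log2 fold change over the square root of the quasi-likelihood F statistic. It is approximate, above all for genes with few reads under 1 label. Called means an adjusted p under 0.05. CPM values use TMM-scaled totals. The pipeline was tested on simulated data. Depth was 17404736 to 22168525 reads, counting intervals are 95%, and intervals and floors cover counting error only. Sums and shares were compared by exact two-sided permutation tests. Starts more than 500 bases apart were counted as separate, where their mean share was at least 15% under at least 1 label.

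Members, lists and tests were chosen with earlier results of these data known. Per-library values are given, in each role group, for up to 5 members of smallest adjusted p among those averaging 1 CPM or more under at least 1 label, and for the one with the smallest log2 fold change; further members with a call or a limit of their own were added after their values were seen. From each other list, the 2 genes with the smallest adjusted p are named. Alternatives were DESeq2 1.42.0, other scalings, other filters, an offset for effective length, protein-coding transcripts only, summing the RASA4 copies, a replicate block and leaving out each library. RefSeq promoters were read for 39 members.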

Additional observations from a re-analysis of the deposited data

How the results depend on the processing

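Over 16 alternatives, 20 of the 26 called members kept direction and call, and the other 6 (KSR2, RASGRP2, RASA1, RASA3, SPRED1 and RASSF8) lost the call in at least 1 of them without a change of sign. Of 11 uncalled members tested, 5 (SOS1, SPRY1, RASSF1, RASSF4 and RASSF7) gained a call in at least 1. With no filter on low counts, 8 members were called higher beyond a log2 fold change of 2, against 4 with the filter. The added members had few reads. Over all genes, 2869 were called higher beyond that fold with no filter, against 2065 with it. On protein-coding transcripts alone, 1237 genes were called lower beyond that fold, against 1930, with fewer genes tested (13093). Leaving out 1 library at a time gave 13 to 16 members higher, 9 to 13 lower, 3 to 6 higher and 3 to 4 lower beyond a log2 fold change of 2, and over all genes 4804 to 5375 higher, 4548 to 5228 lower, 2098 to 2287 higher and 1966 to 2220 lower beyond it. Upper-quartile scaling and scaling to library totals moved the median of all genes to -0.10 and -0.13. The labels share replicate numbers. Deviations of same-numbered libraries from their label means correlated at -0.06, 0.13 and -0.08, and those of other pairs between -0.18 and 0.17. With 3 libraries per label, these values cannot decide whether same-numbered libraries were handled together. With the number as a block, 14 members were called higher and 10 lower, and KSR2 (adjusted p = 0.0655) and SPRED1 (0.0618) lost their calls. The 10 members below the filter had at most 58 reads over the libraries of a label, and whether depth or low expression sets this was not tested. Of these, RASGRF1, SPRY4 and RASSF10 were called higher in a fit without it (adjusted p = 0.00272, 0.00186 and 0.000703).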
